A study of Mus musculus with 31 samples.

Results

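The 36 genes described here encode the machinery of macroautophagy, the process by which a cell wraps a part of its cytoplasm in a double membrane, the autophagosome, and delivers it to the lysosome for breakdown. The genes were taken by name and sorted by the step they serve: 5 for initiation, 6 for nucleation, 6 for lipid transfer, 10 for the conjugation enzymes, 5 for the Atg8 family, 3 for cargo receptors and 1 transcription factor. They were 36 of 25497 genes that could be summed from the transcript tables, and all 36 were among the 14886 genes left after the filter on low counts. The rule that names the members uses no measured value, but the members were chosen with earlier results of these data known. No test of the list as a whole was therefore run. Levels were measured by RNA-seq of polyadenylated RNA from the thalamus of 31 mice at postnatal day 90. The mice were offspring of control mothers or of mothers that had gone through social isolation rearing (SIR), and by label they formed 4 groups: 8 control females, 8 SIR females, 8 control males and 7 SIR males. The labels name neither a treatment of the offspring themselves nor a strain, litter or batch, and each p-value measures the spread between these animals.

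Autophagy begins when the Ulk kinase complex, held together by the scaffold Rb1cc1 (also known as FIP200), becomes active. A lipid kinase complex around Pik3c3 and Becn1 then marks the membrane, the Atg2 proteins carry lipid into it, and a chain of enzymes that resembles ubiquitin conjugation attaches the Atg8 proteins (the LC3 and GABARAP families) to it. Receptors such as Sqstm1 (p62) tie cargo to the Atg8 proteins. Neurons depend on basal autophagy, since they cannot dilute damaged proteins and organelles by dividing.

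Transcription factor EB (Tfeb), itself a member of the set, is known to bind promoters of autophagy and lysosome genes at sites built on the E-box CACGTG. These letters, which read the same on both strands, were therefore searched in RefSeq promoter windows (build GRCm38.p6, 250 bases before to 50 bases after the annotated start). Of the 36 members 30 matched a promoter entry, with 35 windows between them, and 4 windows (11.4%) of 4 genes held the letters. Of all 32851 promoter windows, 2349 (7.15%) held them. The stretches of 30 bases around each match are shown because Atg7, one of the genes called below, is among the 4; they are written 5′ to 3′ on the strand of the gene, with the E-box in capitals.
Atg7, chr6:114670952-114670981, plus strand: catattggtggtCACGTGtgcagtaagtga
Atg5, chr10:44268313-44268342, plus strand: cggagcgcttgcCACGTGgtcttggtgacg
Atg14, chr14:47568418-47568447, minus strand: aaaacaaaatccCACGTGactggccctgag
Atg3, left match, chr16:45158723-45158752, plus strand: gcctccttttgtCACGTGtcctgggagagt
Atg3, right match, chr16:45158746-45158775, plus strand: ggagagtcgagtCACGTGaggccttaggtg
Atg3 held the letters at 2 places in 1 window, and the E-box of Atg14 began 1 base before its start. A match of letters is a description of the sequence and was not tested as a binding site.

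Library totals ran from 13 to 25.74 M (mega) estimated counts (median 23.28), and the lowest count of any member in any library was 27, for Atg4a. The library labelled SIR female 5 held 59.7 counts-per-million (CPM) over 3 Y-linked genes, against 47.3 to 69.6 in the male libraries and at most 0.298 in the other female ones, so it went against its label. It was kept under that label in the main fit and is counted as an SIR female in all group values below. The number in each library's name was lower in every SIR library than in every control library, so housing and number range cannot be told apart. The names of 8 libraries lay apart from the rest in number (320 to 323 and 738 to 746: SIR male 1, SIR females 2 and 3, control males 27 and 28, and control females 29, 30 and 31). Values without these libraries stand beside the results below where the call differs. The labelled tissue was checked against 6 markers of thalamic relay neurons, whose summed level ranged from 2160 to 4190 CPM with no marker at 0 in any group.

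Levels per transcript length, as TPM (length-scaled transcript abundance), spanned a wide range. The Atg8 family and its receptor stood at the top of the set: Gabarapl1 had a mean of 699 TPM over the 31 libraries, Sqstm1 483, Gabarapl2 345, Map1lc3a 283, Gabarap 215 and Map1lc3b 190. Becn1, at 177 TPM, and Nbr1, a receptor related in function to Sqstm1, at 115, followed. Of the counts of Becn1, 56.6% were assigned to a transcript annotated as a target of nonsense-mediated decay, and 12.6% to a retained intron of 487 bases. Its effective length was 935 bases, and in counts it stood at 85.9 CPM, below Nbr1 at 220. All 6 genes of the highest levels thus encode the proteins that sit on the autophagosome membrane or bind there. After Nbr1 came Atg9a (80.9), the lipid scramblase of the vesicles that seed the membrane, and the scaffold Rb1cc1 (73.2). At the low end were the transcription factor Tfeb at 11.6 TPM, Atg14, the subunit that brings the lipid kinase to its site of action, at 11.2, and Atg4a, one of 4 related proteases, at 3.81. Within a group, a member varied between animals by a median SD of 0.098 on the log2 scale, against 0.153 for all genes tested. Atg4a varied most (0.414); it is X-linked and has an annotated pseudogene copy, so its reads may be split between the copies.

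**Figure D1:**
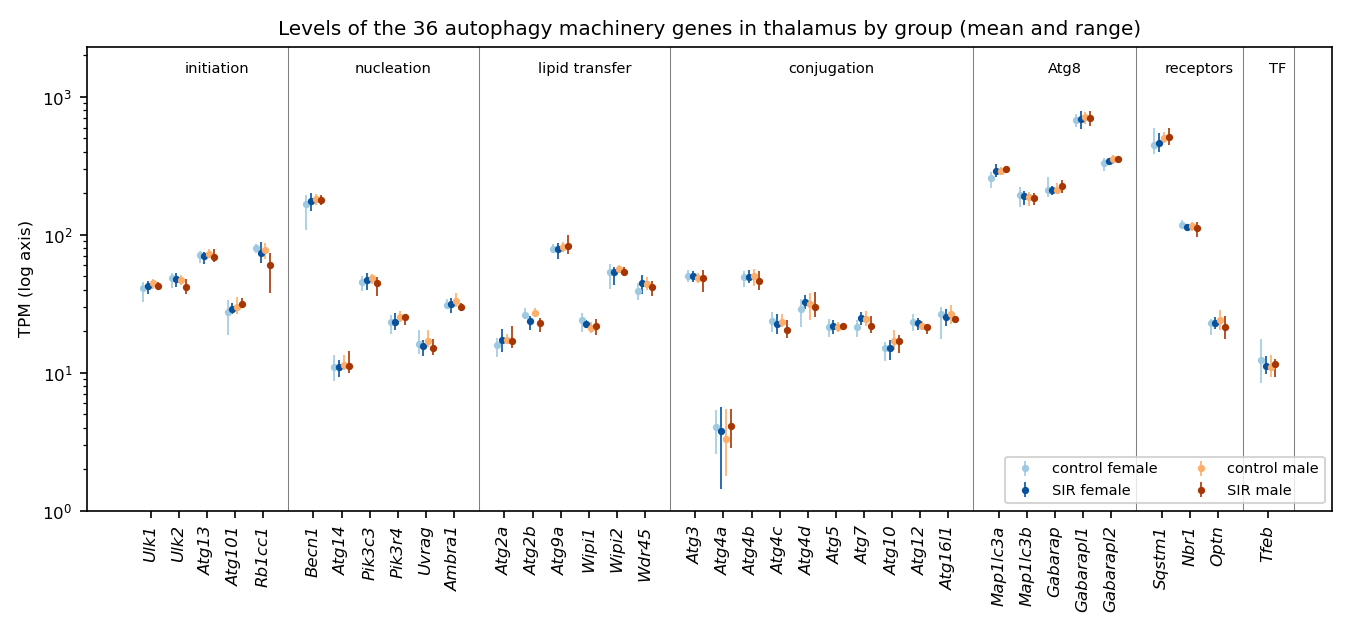
Level of each of the 36 genes in TPM on a log axis, by step; points are group means and bars the range over the 7 or 8 libraries of a group. Gabarapl1 stood highest (mean 699 TPM) and Atg4a lowest (3.81 TPM), and for nearly every gene the ranges of the 4 groups overlap.

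The first comparison asked whether the machinery differed between SIR and control offspring over both sexes. Of the 36 members 3 passed at an adjusted p of 0.05 (8.33%), beside 678 of all 14886 genes tested (4.55%). Atg2b and Rb1cc1 fell and Map1lc3a rose, each by less than 1.2-fold. The median log2 fold change was 0.012 over the members and -0.006 over all genes, with 22 members positive and 14 negative. DESeq2 called the same 3 members, where it called 7.6% of all genes, and limma-voom these and Ulk2 (11.1% of members, against 8.33% of all genes). An unadjusted p under 0.05 was found for 6 members (16.7%), against 22.1% of all genes. With single libraries left out, the calls among all genes ran from 220 (without control male 25) to 1042 (without control female 20).

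Atg2b, on chromosome 12, encodes one of 2 Atg2 proteins that carry lipids from the endoplasmic reticulum to the growing membrane. In males its level ranged from 72.1 to 83.7 CPM (scaled for library size; median 78.1) in controls and from 59.8 to 69.8 (median 66.1) in SIR offspring. The male groups did not overlap. In females it ranged from 70.1 to 89.5 CPM (median 75.9) in controls and from 65.1 to 74.6 (median 72.0) in SIR offspring, so these ranges overlapped. All 15 SIR libraries lay below the median of the controls of their own sex. Over both sexes Atg2b fell by 0.19 ± 0.03 on the log2 scale (SE; 1.14-fold lower, adjusted p = 0.0124 by edgeR's quasi-likelihood test). Without the 8 libraries whose numbers lie apart, the difference was -0.18 with an adjusted p of 0.0634. Its paralog Atg2a differed by 0.01 ± 0.03 (adjusted p = 0.862).

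Rb1cc1, on chromosome 1, ranged from 89.3 to 101 CPM (median 93.7) in control males and from 61.2 to 94.7 (median 78.9) in SIR males. In control females it ranged from 86.9 to 116 CPM (median 105) and in SIR females from 82.7 to 105 (median 97.8). SIR males were low and spread widely, and in both sexes the groups overlapped. Of the SIR libraries 11 of 15 lay below the median of all controls. Against the controls of their own sex it was 6 of 7 males and 7 of 8 females. Over both sexes Rb1cc1 fell by 0.18 ± 0.05 on the log2 scale (1.14-fold lower, adjusted p = 0.0383, edgeR). This call rested on many single libraries, among them the one labelled SIR female 5, whose Y-linked genes went against its label. It was lost, with adjusted p up to 0.0705, when any of SIR males 1, 4, 6 and 15, SIR females 2, 3, 5 and 12, control males 19, 21, 22 and 25 or control females 29, 30 and 31 was left out, and without the 8 libraries apart the difference was -0.09 (adjusted p = 0.414).

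Map1lc3a, on chromosome 2, encodes LC3A, one of the Atg8 proteins that are joined to the membrane lipid. It ranged from 130 to 154 CPM (median 143) in control females and from 141 to 174 (median 158) in SIR females. In control males it ranged from 152 to 162 CPM (median 156) and in SIR males from 150 to 180 (median 167). Control females were the low group and all ranges overlapped within a sex. Of the SIR libraries 12 of 15 lay above the median of all controls. Against the controls of their own sex it was 6 of 7 males and 7 of 8 females. Over both sexes Map1lc3a rose by 0.12 ± 0.03 (log2, 1.09-fold, adjusted p = 0.0253, edgeR). It differed by 0.07 (adjusted p = 0.314) without the 8 libraries apart.

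**Figure D2:**
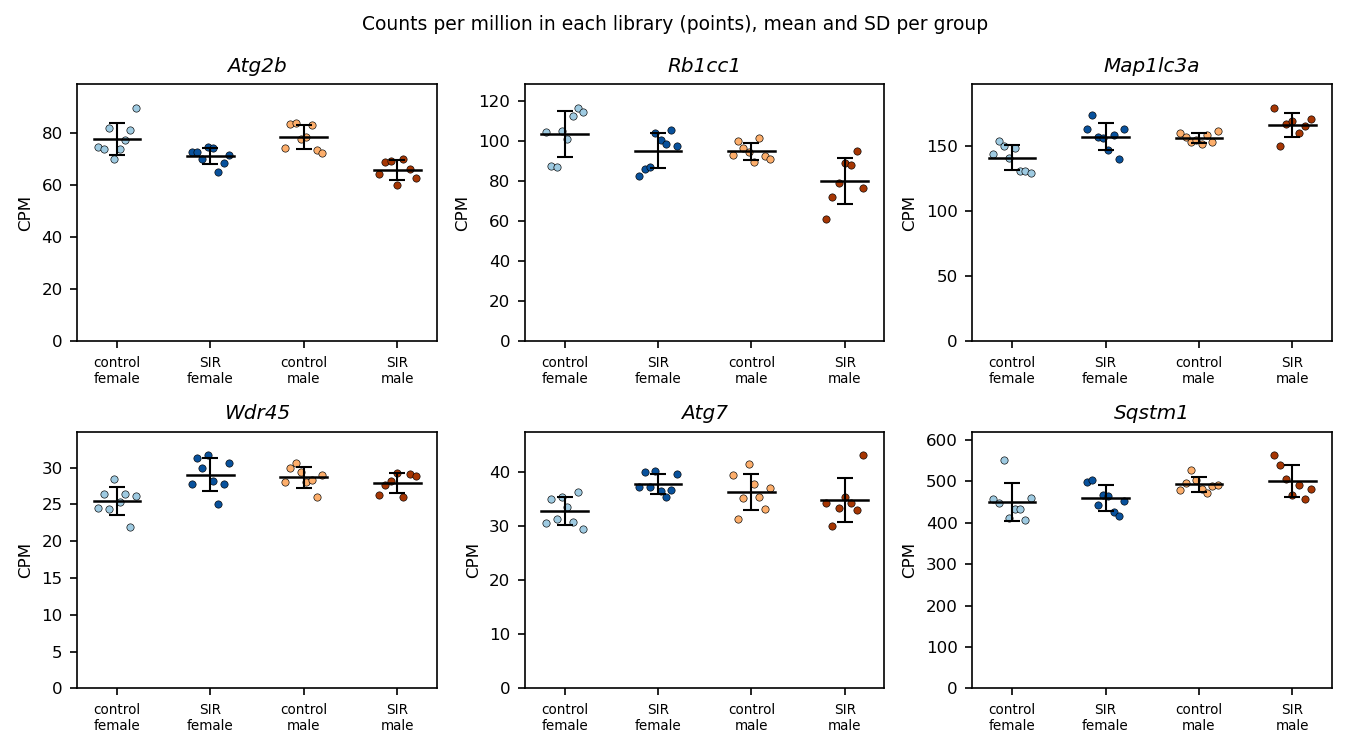
Level (CPM) of 6 members in each library (points), with the mean and SD of each group as bars; the vertical axes start at 0. Atg2b in SIR males lies below every control male (69.8 at most against 72.1 at least), and Map1lc3a, Wdr45 and Atg7 are lowest in control females.

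Long members tended to be lower in SIR offspring and short ones higher. Across the 36 members the Spearman correlation between effective length and the log2 fold change over both sexes was -0.545, and across all 14886 genes tested it was -0.324; genes share libraries and are no replicates. Members shorter than the median tested gene (2405 bases) were positive in 14 of 16 cases, and longer ones in 8 of 20. For each library the slope of log2 level on log2 length was computed over all genes. Its median was 0.018 in control females (0.007 to 0.075) and 0.009 in control males (-0.036 to 0.025). In SIR females it was 0.001 (-0.021 to 0.025) and in SIR males -0.041 (-0.08 to 0.001). By these medians SIR males were the low group in long genes and control females the high group. The ranges of SIR males and control females did not overlap, and those of every other pair of groups did.

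Each member was therefore set beside the 500 tested genes nearest to it in effective length. Over both sexes 23 of 36 members lay above the median of these neighbours, 19 of 36 in males and 22 of 36 in females. For Atg2b, with an effective length of 5634 bases, the neighbours had a median log2 fold change of -0.058, which left a difference of -0.130. Rb1cc1 (2466 bases) had neighbours at -0.012 and lay -0.171 from them. The short Map1lc3a (1054 bases) had neighbours at 0.039 and lay 0.084 above them. With 200 or 1000 neighbours in place of 500, no member's reference moved by more than 0.018.

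In a fit in which the trend with length was removed from every library, 78 genes (0.524%) passed over both sexes. Among the members Atg2b passed, at -0.13 ± 0.03 on the log2 scale (adjusted p = 0.0357, edgeR). Rb1cc1, at -0.17 ± 0.05, had an adjusted p of 0.0782 and Map1lc3a, at 0.08 ± 0.03, one of 0.13. The value for Rb1cc1 thus changed little, while those of Atg2b and Map1lc3a moved towards 0. Rb1cc1 entered both steps as a gene of 2466 bases, a length that its short transcripts pull down. Of its counts, 32.0% and 29.9% fell to transcripts of 7607 and 5707 bases. Tested genes in the bin around 6138 bases had a median of -0.063 over both sexes. A greater length for Rb1cc1 was not tested.

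**Figure D3:**
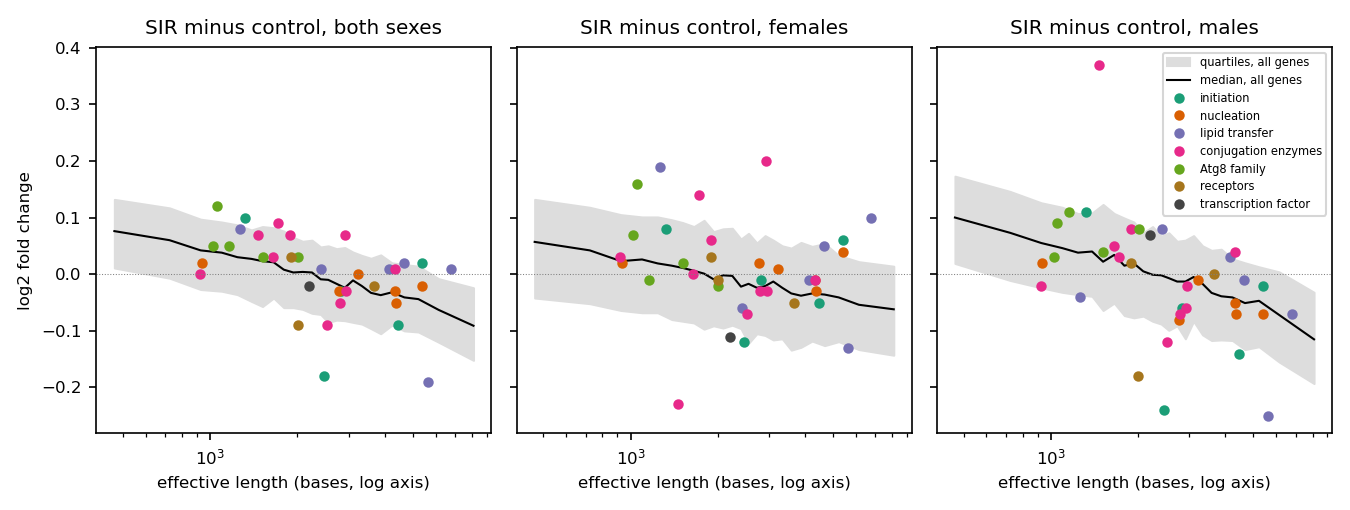
Log2 fold change (SIR minus control) of the 36 members against effective transcript length in bases (log axis) over both sexes, in females and in males; the line and grey band are the median and quartiles of all genes tested in bins of length. The line falls with length in each panel, and Atg2b (-0.19 over both sexes, -0.25 in males) and Rb1cc1 lie below the band.

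The steps were then described one by one over both sexes. In the initiation group 1 of 5 genes passed, Rb1cc1, and the median log2 fold change was -0.032. Ulk2, one of the 2 Ulk kinases, stood at -0.09 ± 0.04 (adjusted p = 0.116) and Ulk1 at 0.02 ± 0.03 (adjusted p = 0.622, edgeR). Atg101, a small subunit of the complex, stood at 0.10 ± 0.05 (adjusted p = 0.239). In Ulk2 the SIR males, from 87.5 to 115 CPM (median 96.7), had the lowest median, and the other groups had medians of 110 to 112.

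None of the 6 nucleation genes passed or had an unadjusted p under 0.05 by edgeR, and their median was -0.022, between -0.05 and 0.02. The smallest p in this step was that of Uvrag, a subunit of one form of the lipid kinase complex, at -0.05 ± 0.04 on the log2 scale (adjusted p = 0.446, edgeR). Uvrag ranged from 35.4 to 40.2 CPM in control males (median 37.3), 32.4 to 43.3 in SIR males (median 34.9), 32.6 to 39.3 in control females (median 36.5) and 33.4 to 38.5 in SIR females (median 36.1). These groups overlapped in both sexes. Becn1, the best known gene of the step, differed by 0.02 ± 0.03.

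Among the 6 lipid transfer genes Atg2b was the single call, and the other 5 had positive values up to 0.08 (Wdr45). The 10 conjugation enzymes gave no call and no unadjusted p under 0.05 by edgeR, with 7 positive values and a median of 0.019. The smallest p among them was that of Atg4d, a protease that trims and releases Atg8 proteins, at 0.09 ± 0.05 on the log2 scale (adjusted p = 0.293, edgeR). Atg4d had medians of 27.4 CPM in control females (22.7 to 28.5), 28.8 in SIR females (26.1 to 32.0), 27.4 in control males (22.8 to 30.4) and 27.9 in SIR males (22.7 to 33.7), all overlapping. Of its counts, 75.3% were assigned to a transcript annotated as a retained intron.

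All 5 Atg8 family genes had positive values over both sexes, from 0.03 to 0.12, with 1 call (Map1lc3a). Their median was 0.050, and the median of their length neighbours was 0.034. With the length trend removed all 5 were still positive, with a median of 0.015, and on log2(TPM + 1) values 4 of 5 were. These are short genes, with a median effective length of 1160 bases, and the medians of their length neighbours were positive for each of them or at 0.000 (Map1lc3b).

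None of the 3 receptors passed by edgeR, and 1 had an unadjusted p under 0.05. This was Optn, a receptor for damaged mitochondria and bacteria, at -0.09 ± 0.04 on the log2 scale (adjusted p = 0.163, edgeR). It ranged from 22.3 to 29 CPM (median 25) in control males, 19.4 to 24.9 (median 22.9) in SIR males, 22.1 to 25.5 (median 23.8) in control females and 21.8 to 25.6 (median 23.9) in SIR females. All 7 SIR males lay below the control male median, while the females did not part. Tfeb, with medians of 13.7 CPM in control females (10.6 to 16.2), 12.6 in SIR females (11.8 to 14), 13.1 in control males (11 to 14.1) and 13.8 in SIR males (12.5 to 14.4), differed by -0.02 ± 0.05 on the log2 scale (adjusted p = 0.847).

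**Figure D4:**
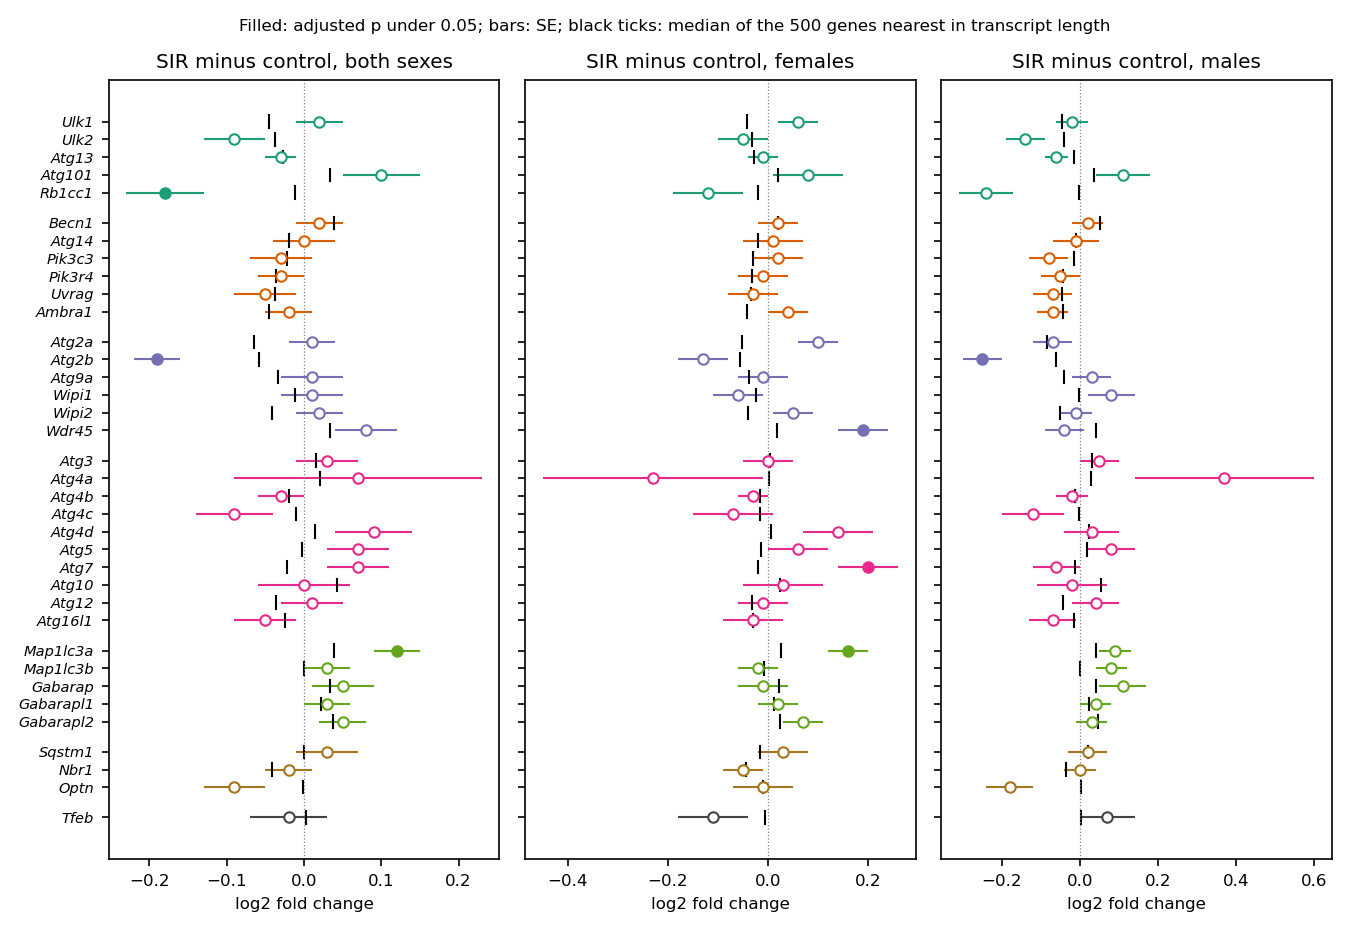
Log2 fold change (SIR minus control) of each member with its SE, over both sexes, in females and in males, by step (colours); filled points have an adjusted p under 0.05 and black ticks mark the median of the 500 genes nearest in length. The 3 panels have different horizontal scales, and Atg2b, Rb1cc1 and Map1lc3a are filled over both sexes, Wdr45, Atg7 and Map1lc3a in females and Atg2b in males.

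Within males 1 of 36 members passed (2.78%), beside 198 of 14886 genes (1.33%). The background count rested on single libraries. It was 0 by edgeR when control male 22 was left out (with 2193 genes at an unadjusted p under 0.05), and 17, 23 and 50 when SIR males 15, 6 and 1 were left out in turn. For control males 25, 21 and 19 it was 26, 38 and 93, and for control males 28 and 27 and control female 31 it was 314, 506 and 325. The member that passed was Atg2b, lower in SIR males by 0.25 ± 0.05 on the log2 scale (1.19-fold lower, adjusted p = 0.0149, edgeR), with 7 of 7 SIR males below the control median. Its level was 78.2 ± 4.65 CPM (SD, n = 8) in control males and 65.8 ± 3.79 (n = 7) in SIR males. The difference was -0.28 with an adjusted p of 0.00985 when the 8 libraries apart were left out. It lost the call without SIR male 15 (adjusted p = 0.0509) or control male 22 (0.0516). With the length trend removed it stood at -0.18 ± 0.04 (adjusted p = 0.0608, where 0.249% of all genes passed), and with 3 components of the marker lists as covariates at -0.19 (adjusted p = 0.171).

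The members with the smallest p-values after Atg2b in males were Rb1cc1, at -0.24 ± 0.07 (adjusted p = 0.0758), Optn, at -0.18 ± 0.06 (adjusted p = 0.0904), and Ulk2, at -0.14 ± 0.05 (adjusted p = 0.139, all edgeR). Of the 20 members longer than the median tested gene 4 were positive, and of the 16 shorter ones 13. All 5 Atg8 genes were positive in males, with a median of 0.083 against 0.040 for their neighbours in length, and none passed or had an unadjusted p under 0.05 by edgeR. With the length trend removed 4 of the 5 were positive.

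Within females 3 of 36 members passed (8.33%), beside 688 of 14886 genes (4.62%). The count over all genes fell to between 360 and 428 when SIR female 3 or 7 or control female 29 or 31 was left out. All 3 were higher in SIR offspring, and 355 of all genes tested (2.38%) were called in that direction. They were Map1lc3a, Wdr45 and Atg7, a gene each of the Atg8 family, the lipid transfer group and the conjugation enzymes. Wdr45 is X-linked and encodes WIPI4, a partner of the Atg2 proteins; its loss in humans causes a disease of brain iron accumulation. Atg7, on chromosome 6, encodes the enzyme that activates both Atg12 and the Atg8 proteins for conjugation.

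Wdr45 ranged from 21.9 to 28.5 CPM (median 25.7) in control females and from 25.1 to 31.7 (median 29) in SIR females. It ranged from 26 to 30.7 (median 28.6) in control males and from 26 to 29.3 (median 28.2) in SIR males. Control females were the low group, and the other 3 groups had similar medians. In females Wdr45 rose by 0.19 ± 0.05 on the log2 scale (1.14-fold, adjusted p = 0.0237, edgeR), with 7 of 8 SIR females above the control median. Its length neighbours stood at 0.019 in females. It did not pass without SIR female 3 (adjusted p = 0.0587), SIR female 7 (0.0599) or control female 30 (0.0562). With the 8 libraries apart left out the difference was 0.16 (adjusted p = 0.247), and with the length trend removed 0.17 ± 0.05 (adjusted p = 0.0612).

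Atg7 ranged from 29.4 to 36.3 CPM (median 32.4) in control females and from 35.2 to 40.1 (median 37.1) in SIR females. In control males it ranged from 31.3 to 41.5 (median 36.2) and in SIR males from 29.9 to 43.1 (median 34.2). The female ranges overlapped by about 1 CPM and the male ranges lay over each other. In females Atg7 rose by 0.20 ± 0.06 on the log2 scale (1.15-fold, adjusted p = 0.046, edgeR), with 8 of 8 SIR females above the control median. Its length neighbours stood at -0.020, and with the length trend removed Atg7 stood at 0.22 ± 0.06 (adjusted p = 0.0384), 1 of 598 genes (4.02%) that passed in that fit and the only member. The call was near the threshold. It was lost, with adjusted p up to 0.0979, when any of SIR females 2, 3, 5 (adjusted p = 0.0616), 7, 9, 11 and 12, SIR males 8 and 13, control females 17, 20, 26, 29 and 31 or control males 21, 25 and 28 was left out. Without the 8 libraries apart the difference was 0.18 (adjusted p = 0.373).

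Map1lc3a in females rose by 0.16 ± 0.04 on the log2 scale (1.12-fold, adjusted p = 0.0275, edgeR), with 7 of 8 SIR females above the control median. It was 141 ± 9.64 CPM (SD, n = 8) in control and 158 ± 10.3 (n = 8) in SIR females. It did not pass without SIR female 3 (adjusted p = 0.0756), SIR female 12 (0.0531) or control females 29 (0.0691), 30 (0.0611) or 31 (0.0645). Without the 8 libraries apart the difference was 0.06 (adjusted p = 0.65), and with the length trend removed 0.13 ± 0.04 (adjusted p = 0.0674). The other 4 Atg8 genes lay between -0.02 and 0.07 in females and none passed.

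The female groups also differed in cell type markers. The summed level of 8 oligodendrocyte markers had a median of 11500 CPM (9960 to 12000) in control females and 9080 (7490 to 10600) in SIR females, and the male medians were 7950 (7280 to 10200) in controls and 9510 (8150 to 10500) in SIR offspring. The 6 hypothalamus markers had a median sum of 55.1 CPM in control females (23.1 to 362), against 242 in SIR females (68.3 to 382), 292 in control males (39.2 to 399) and 290 in SIR males (18.7 to 470); as with Map1lc3a, Wdr45 and Atg7, control females had the lowest median, and none of these markers passed in females by itself. Single markers of neighbouring regions did pass in females by edgeR. Slc6a3, a midbrain marker, had a mean of 8.21 CPM in controls and 0.351 in SIR offspring (-4.52, log2, adjusted p = 0.00655). Gpr151, a habenula marker, had 1.65 and 6.06 (1.88, adjusted p = 0.036). No other tested marker of these lists passed in females, and the ranges of the list sums overlapped. The midbrain sum had a median of 31.3 CPM in control females, with a maximum of 107, and 27.4 in SIR females. The habenula sum had medians of 18.4 and 19.5. Nwd2, the habenula marker with the highest mean, was lower in SIR females (15.6 and 12.4 CPM, -0.32), while the other tested habenula markers were higher. The 6 choroid plexus markers reached 1750 CPM in 1 control female library and had medians of 14 to 63.4. None of these markers was at 0 in all libraries of a group. In a fit with 3 components of all marker lists as covariates, the female differences were 0.18 (adjusted p = 0.0139) for Map1lc3a, 0.18 (adjusted p = 0.0372) for Wdr45 and 0.19 (adjusted p = 0.0529) for Atg7. The part of any single marker list in the 3 calls was not tested. In bulk tissue, fewer cells of a type and less RNA per cell cannot be told apart.

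Whether the SIR effect in males differed from that in females was tested as an interaction. None of the 36 members passed, beside 422 of 14886 genes (2.83%), while 4 members had an unadjusted p under 0.05 (11.1%, against 15.3% of all genes). DESeq2 called 0 members, against 4.16% of all genes, and limma-voom 2 (5.56%, against 4.79%). The largest contrasts by p were those of Wdr45, at -0.23 ± 0.07 (adjusted p = 0.0791), and Atg7, at -0.27 ± 0.09 (adjusted p = 0.0908, edgeR). In both genes SIR offspring were higher in females and slightly lower in males (Wdr45 -0.04 ± 0.05, Atg7 -0.06 ± 0.06). The other members with an unadjusted p under 0.05 were Atg2a (-0.17 ± 0.06, adjusted p = 0.142) and Optn (-0.17 ± 0.08, adjusted p = 0.285). For Atg2b, called in males and not in females (-0.13 ± 0.05, adjusted p = 0.102), the interaction was -0.12 ± 0.07 (adjusted p = 0.394), so its effect was not shown to differ between the sexes.

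Males and females were then compared over both housings. Of the 36 members 6 passed (16.7%), beside 1502 of 14886 genes (10.1%). Map1lc3a, Sqstm1 and Atg10 were higher in males, and Rb1cc1, Wipi1 and Ulk2 were lower. Map1lc3a was higher by 0.11 ± 0.03 on the log2 scale (adjusted p = 0.0183, edgeR). Rb1cc1 was lower by 0.19 ± 0.05 (adjusted p = 0.0185, edgeR), with 14 of 15 males below the median of all females. Both were also called between SIR and control offspring, in the same 31 libraries. With 3 marker components as covariates Rb1cc1 (-0.21, adjusted p = 0.0585), Wipi1 (-0.08, adjusted p = 0.367), Ulk2 (-0.10, adjusted p = 0.113) and Atg10 (0.24, adjusted p = 0.0847) lost the call between the sexes. None of the 3 members lower in males thus passed in that fit by edgeR. With effective length offsets Rb1cc1 (adjusted p = 0.0777), Wipi1 (0.0678) and Atg10 (0.0537) did not pass, and on log2(TPM + 1) values none of the 6 did by limma (adjusted p from 0.064 to 0.109).

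Sqstm1 encodes the receptor p62, which binds ubiquitinated cargo and is itself degraded by autophagy. It ranged from 407 to 551 CPM (median 440) in control females, 416 to 503 (median 459) in SIR females, 471 to 527 (median 490) in control males and 457 to 563 (median 492) in SIR males. All 15 males lay above the median of all females. The SIR ranges overlapped, and the control ranges overlapped through 1 high female (the others reached 460). The sex difference was 0.13 ± 0.04 (log2, adjusted p = 0.0267, edgeR). It lost the call without SIR male 1 (0.12, adjusted p = 0.0532). Sqstm1 overlaps Mrnip on the opposite strand, and Mrnip, at 7.99 CPM, was itself higher in males by 0.23 (adjusted p = 0.0271, edgeR). The sources used here do not say whether strand was used in counting, so reads of the pair may be mixed.

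Wipi1, which reads the lipid made by the Pik3c3 complex, had medians of 30.3 CPM in control females (26 to 32.8), 28.5 in SIR females (24.7 to 33.4), 26.2 in control males (23.2 to 29.4) and 27.4 in SIR males (24.4 to 30.4). It was lower in males by 0.14 ± 0.04 on the log2 scale (adjusted p = 0.0204, edgeR), with 14 of 15 males below the median of all females. It lost the call without SIR male 1 (-0.12, adjusted p = 0.0503, edgeR). Ulk2 was lower in males by 0.12 ± 0.04 (adjusted p = 0.0347). Its groups ranged from 103 to 129 CPM in control females, 99.7 to 123 in SIR females, 103 to 113 in control males and 87.5 to 115 in SIR males, so they overlapped. Ulk2 lost the call, with adjusted p up to 0.067, without any of SIR males 1, 4, 6 and 15, SIR females 7 and 11, control males 21, 27 and 28 or control females 29 and 30.

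Atg10, the enzyme that joins Atg12 to Atg5, was the lowest of the called genes in counts. It had medians of 7.29 CPM in control females (5.51 to 8.08), 7.19 in SIR females (5.84 to 8.85), 8.34 in control males (6.99 to 9.27) and 7.99 in SIR males (7.32 to 9.09). It was higher in males by 0.19 ± 0.06 on the log2 scale (adjusted p = 0.0458, edgeR), a call that was lost in 21 of 31 fits with a library left out, with adjusted p up to 0.0749 (0.0671 without the library labelled SIR female 5). It held without SIR males 4, 14 or 15, SIR females 10 or 11, control males 16, 25 or 28 and control females 20 or 31. Without the 8 libraries apart Wipi1 was the 1 member that passed between the sexes (-0.16, adjusted p = 0.0342), and the adjusted p was 0.0958 for Map1lc3a, 0.103 for Sqstm1, 0.121 for Rb1cc1, 0.196 for Atg10 and 0.217 for Ulk2. With the length trend removed 5 members passed between the sexes, beside 7.25% of all genes: Rb1cc1 (-0.18) and Wipi1 (-0.14) lower in males as before, and Ulk1 (0.11), Wipi2 (0.09) and Pik3r4 (0.11) higher. Map1lc3a (adjusted p = 0.0911), Sqstm1 (0.0562), Atg10 (0.138) and Ulk2 (0.115) did not pass in that fit.

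The counts of 3 genes called between SIR and control offspring over both sexes were also followed to single transcripts. Kallisto splits reads among transcripts of a gene by estimation, so these values carry an error beyond the counts, and no test was run on them. For Atg2b 72.4% of the counts fell to a protein-coding transcript of 7546 bases and 26.7% to one of 3687 bases. In males the long one stood at 56.9 ± 5.89 CPM (SD, n = 8) in controls and 44.2 ± 4.44 (n = 7) in SIR offspring, and the short one at 20.7 ± 2.94 and 20.7 ± 2.99. On these estimates the male difference lay in the long transcript. In females the long one stood at 57.2 ± 6.86 in controls and 53.3 ± 2.74 in SIR offspring, and the short one at 20 ± 2.66 and 17.2 ± 1.89 (n = 8 each), so there both were lower.

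Rb1cc1 was spread over 4 main transcripts. The one of 7607 bases (32.0% of the counts) stood at 30 ± 3.9 CPM (SD, n = 8) in control males and 29.4 ± 6.98 (n = 7) in SIR males. The protein-coding ones of 5707 and 2712 bases stood at 27.9 ± 4.32 and 15.4 ± 3.62 in control males and at 22.7 ± 5.13 and 10.5 ± 4.23 in SIR males. The longest transcript thus had similar means, and the shorter ones had lower means in SIR males. In females the one of 2712 bases stood at 18.9 ± 1.96 in controls and 15.4 ± 3.06 in SIR offspring.

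Map1lc3a had 66.3% of its counts on a protein-coding transcript of 1112 bases and 31.7% on a processed transcript of 826 bases. The coding one stood at 93.8 ± 9.67 CPM in control females and 104 ± 10.4 in SIR females (SD, n = 8 each), and the other at 44.5 ± 5.64 and 50.9 ± 6.12. Both were higher in SIR females on average. Atg2b overlaps Gskip on the opposite strand, where the same limit on strand holds. Gskip had 30.7 CPM and differed by 0.04 over both sexes (adjusted p = 0.63, edgeR).

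**Figure D5:**
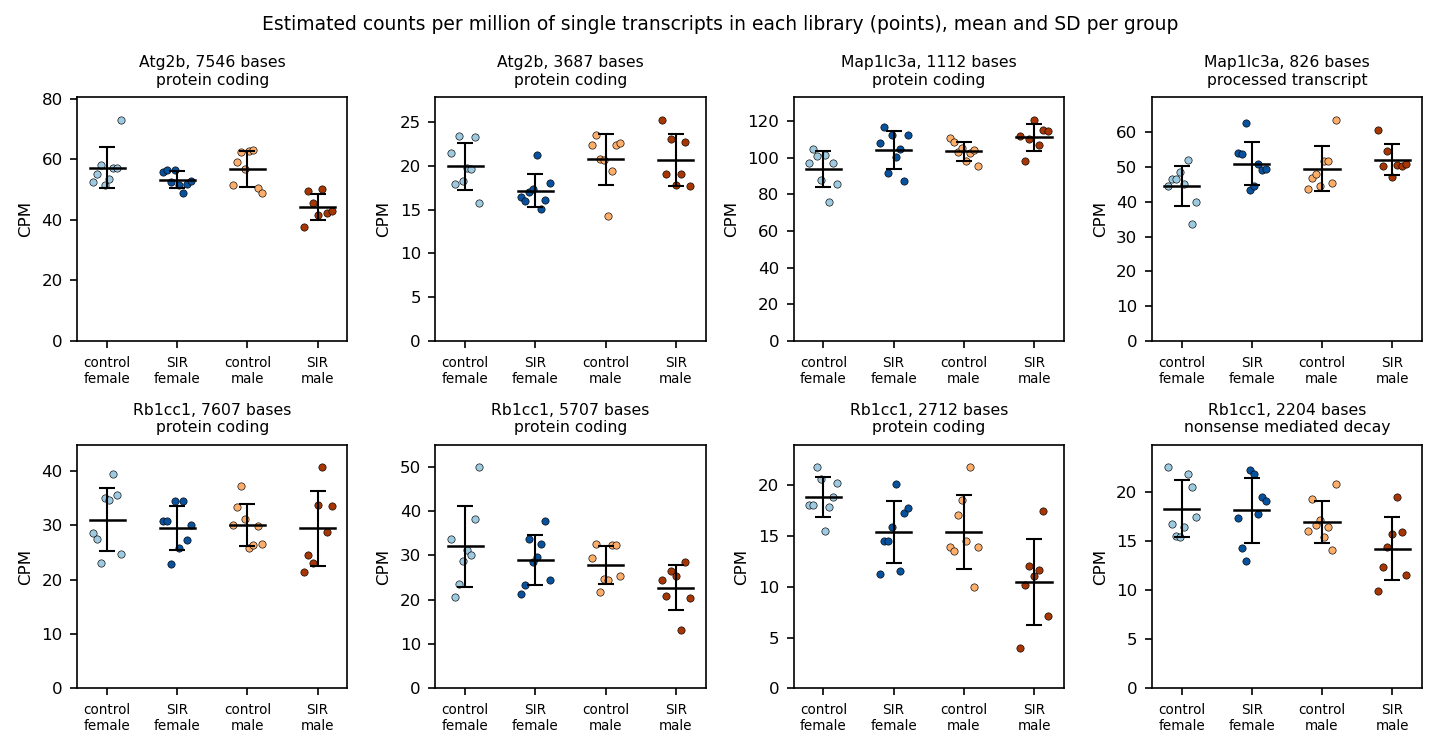
Estimated level (CPM) of single transcripts of Atg2b, Map1lc3a and Rb1cc1 in each library (points), with the mean and SD of each group; the vertical axes start at 0. The Atg2b transcript of 7546 bases is low in SIR males (44.2 against 56.9 CPM in control males), while the one of 3687 bases has the same male mean (20.7 CPM) in both groups.

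A further 74 genes around the machinery were examined: 14 of the mTORC1 and AMPK pathways that switch autophagy off and on, 11 other autophagosome genes, 15 other receptors and mitophagy genes, 14 genes of fusion with the lysosome, and 20 lysosomal genes. All 74 were tested. Over both sexes 1 rose and 2 fell (4.05%), against 4.55% of all genes. Mlst8, a subunit of the mTOR complexes, rose by 0.11 ± 0.03 (log2, adjusted p = 0.0383, edgeR). Tbk1, the kinase that phosphorylates Optn and Sqstm1, fell by 0.18 ± 0.05 (adjusted p = 0.0319), and Wdfy3, a large adaptor for protein aggregates, fell by 0.11 ± 0.03 (adjusted p = 0.043).

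Levels of Tbk1 were 60.0 ± 2.14 CPM (SD, n = 8) in control males, 52.7 ± 7.68 (n = 7) in SIR males, 60.8 ± 6.2 in control females and 54.0 ± 3.95 in SIR females (n = 8 each). It was thus lower in SIR offspring of both sexes. With the length trend removed Tbk1 stood at -0.17 (adjusted p = 0.0672) and Mlst8 at 0.13 (adjusted p = 0.0385). Wdfy3 also lost its call with RLE (adjusted p = 0.0506) or upper-quartile scaling (0.0672), and Mlst8 with effective length offsets (0.08, adjusted p = 0.368) or on log2(TPM + 1) values (0.06, adjusted p = 0.679). With the length trend removed Wdfy3, whose effective length of 12212 bases is far above that of any member, stood at 0.00 (adjusted p = 0.977, edgeR). Without the 8 libraries apart, where none of all genes tested passed by edgeR and 2031 had an unadjusted p under 0.05, Tbk1 stood at -0.15 (adjusted p = 0.255), Mlst8 at 0.11 (0.152) and Wdfy3 at -0.09 (0.192). Without the library labelled SIR female 5 Tbk1 had an adjusted p of 0.0409, Mlst8 one of 0.068 and Wdfy3 one of 0.0681. Of the 31 fits with a library left out, Tbk1 lost its call in 7 (SIR males 1 and 6, SIR females 3 and 12, control males 22 and 25, control female 30; adjusted p up to 0.0627), Mlst8 in 9 and Wdfy3 in 17 (adjusted p up to 0.068 and 0.0948).

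The 20 lysosomal genes gave no call over both sexes by edgeR, with 16 positive values (80%, against 47.7% of all genes) and a median of 0.042. An unadjusted p under 0.05 was found for 4 of them (20%, against 22.1% of all genes), and DESeq2 and limma-voom each called 1, where they called 7.6% and 8.33% of all genes. Within males 1 of the 74 genes fell (1.35%, against 1.33% of all genes): Wdfy3, by 0.19 ± 0.05 (adjusted p = 0.0311, edgeR), which with the length trend removed stood at -0.04 (adjusted p = 0.615) and with 3 marker components at -0.11 (adjusted p = 0.337). It also lost the call in 7 of 31 fits with a library left out (SIR males 1, 6 and 15 and control males 19, 21, 22 and 25; adjusted p up to 0.101). Within females 1 fell (1.35%, against 4.62%): Ncoa4, the receptor that brings ferritin to the autophagosome, by 0.13 ± 0.04 (adjusted p = 0.0246). Ncoa4 stood at 115 ± 5.08 CPM in control and 105 ± 2.7 in SIR females (SD, n = 8 each). It did not pass without SIR female 7 (adjusted p = 0.051), SIR female 12 (0.0531) or control female 31 (0.0506). Without the 8 libraries apart the difference was -0.12 (adjusted p = 0.273), and the call was also lost with 3 marker components (-0.11, adjusted p = 0.0594), with effective length offsets (0.126), on log2(TPM + 1) values (0.187), with no filter (0.0591) and without the 2 shallowest libraries (0.0564).

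The SIR effect differed between the sexes in 2 of the 74 genes (2.7%, against 2.83%). Deptor, an inhibitor bound to mTOR, was lower in SIR males (47.2 ± 0.812 CPM, SD, n = 7, against 54.9 ± 4.07, n = 8) and higher in SIR females (59.4 ± 7.77 against 53.4 ± 3.65, n = 8 each), with an interaction of -0.37 ± 0.09 (log2, adjusted p = 0.013, edgeR). Retreg1, a receptor for the endoplasmic reticulum, stood at 68.2 ± 6.26 CPM in SIR males, 79.1 ± 8.65 in control males, 80.7 ± 7.11 in SIR females and 74.4 ± 4.62 in control females. Its interaction was -0.33 ± 0.09 (adjusted p = 0.0364). Neither gene passed within one sex alone: Deptor had adjusted p = 0.0605 in males and 0.133 in females, and Retreg1 0.0736 and 0.298. With 3 components of the marker lists as covariates the interactions were -0.34 for Deptor (adjusted p = 0.103) and -0.31 for Retreg1 (adjusted p = 0.169), and the call of Retreg1 was lost in 14 of the 31 fits with a library left out (adjusted p up to 0.0676).

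Between the sexes 6 of the 74 genes passed (8.11%, against 10.1% of all genes). Vps11 (0.15 ± 0.03, adjusted p = 0.0035), of the complex that tethers autophagosomes to lysosomes, and Pink1 (0.10 ± 0.03, adjusted p = 0.0119), the kinase that marks damaged mitochondria, were higher in males by edgeR. Bnip3l (-0.17 ± 0.04, adjusted p = 0.00656), a mitophagy receptor, Mitf (-0.33 ± 0.08, adjusted p = 0.0082), a relative of Tfeb, Wdfy3 (-0.16 ± 0.03, adjusted p = 0.00166) and Deptor (-0.15 ± 0.04, adjusted p = 0.0291) were lower. With the length trend removed Wdfy3 (adjusted p = 0.103) and Deptor (0.289) did not pass. Deptor also did not pass without SIR male 1, SIR females 7, 9 or 11 or control male 27 (adjusted p up to 0.0576), and Pink1 without the 8 libraries apart (adjusted p = 0.156). With 3 marker components as covariates Mitf stood at -0.16 (adjusted p = 0.332), Bnip3l at -0.13 (0.104) and Deptor at -0.08 (0.403), and on log2(TPM + 1) values Vps11 (0.0644), Wdfy3 (0.058) and Deptor (0.158) did not pass by limma.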

How the data were processed

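The members and gene lists were chosen with earlier results of these data known. Libraries were made with Illumina's stranded mRNA kit from Qiagen AllPrep RNA, per the labels' protocols. Per the submitters' processing notes, FastQC, kallisto and build GRCm39 were used. Each deposited table lists 105878 transcripts with their estimated count, TPM and effective length, per the file headers. The authors' estimated count is not normalized as far as the values show, and the deposited TPM is scaled for length and depth.

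Transcripts were matched to GENCODE M21 gene names (104949, or 99.12%; the rest held 0.69% to 0.76% of counts), and their counts added up by gene, then rounded. EdgeR 4.0.16 in R 4.3.3 (filterByExpr, TMM, robust quasi-likelihood, 1 mean for each of 4 groups, 31 libraries, 14886 genes) gave 5 comparisons, with Benjamini-Hochberg adjustment over all genes and a threshold of 0.05. The fit was also run on simulated counts that held no length trend and no differences in tissue make-up between libraries. That run therefore cannot show how these features affected the calls. Pairs of libraries of a group differed by more than sampling noise. A gene's effective length is its summed counts divided by the sum of each transcript's counts per base. This is a count-weighted harmonic mean, which short transcripts pull down. Named with values were members that passed in any comparison, the member with the smallest p over both sexes in each step, and the listed pathway genes that passed. Alternatives used DESeq2 1.42.0, limma 3.58.1, other scalings, filters and offsets, and libraries left out.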

Additional observations from a re-analysis of the deposited data

Results flagged for a closer look

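In 4 of 52 tests of a member in a group, 1 library stood apart from the rest of its group by Dixon's criterion, where chance gives about 1 in 20. Atg7 was 43.1 CPM in SIR male 15, against 29.9 to 35.3 in the other SIR males. Uvrag was 43.3 CPM in SIR male 14, against 32.4 to 36 in the others. Sqstm1 was 551 CPM in control female 20, against 407 to 460, and Atg10 was 5.51 CPM in control female 18, against 7.02 to 8.08.

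The SIR effect differed between males and females by the interaction test in Deptor (-0.37, log2, adjusted p = 0.013, edgeR) and in Retreg1 (-0.33, adjusted p = 0.0364).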

How the results depend on the processing

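No paired analysis was possible because the replicate numbers in the labels run from 1 to 31 without repeating between groups. Of 36 members, the number called over both sexes (3) was 1 with the length trend removed and 0 without the 8 libraries whose numbers lie apart. In males (1) it was 0 with the length trend removed, 0 with 3 marker components, 0 on log2(TPM + 1), 3 at a threshold of 0.1, 2 with DESeq2 and 3 with limma-voom, and 0 to 3 with a library left out. In females (3) it was 1 with the length trend removed, 0 without the 8 libraries, 1 with the female libraries alone, 0 on log2(TPM + 1), 1 without the 2 shallowest libraries (chosen after seeing the data) and 0 to 3 with a library left out. For the interaction (0) it was 2 at a threshold of 0.1, 2 with limma-voom, 1 on log2(TPM + 1) and 0 to 1 with a library left out. Between the sexes (6) it was 3 with marker components, 1 without the 8 libraries, 0 on log2(TPM + 1) and 2 to 9 with a library left out. Step medians in males moved to 0.028 for lipid transfer with the length trend removed, and on log2(TPM + 1) to 0.01 for the Atg8 family and -0.045 for receptors. In females without the 8 libraries they moved to -0.043 for nucleation, -0.021 for lipid transfer and 0.072 for the conjugation enzymes. The sign of Tfeb over both sexes turned without control female 20 (0.003). Over all genes, 678 calls over both sexes became 0 without the 8 libraries, 78 with the length trend removed, 312 on log2(TPM + 1), 382 without a filter, 392 without the 2 shallowest libraries, 1132 with DESeq2, 1240 with limma-voom, 1417 with marker components and 220 to 1042 with a library left out. With a library left out, 198 calls in males ran from 0 to 506, 688 in females fell as low as 360, 422 for the interaction ran from 285 to 532 and 1502 between the sexes from 1045 to 2200. With upper-quartile scaling the split of 262 higher and 416 lower became 446 and 306. The cause of these changes was not tested.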
